A study of Homo sapiens with 16 samples.

Results

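Of the 47231 probes on single-colour Illumina expression arrays of RNA precipitated from HepG2 cells, 2 were chosen by their normalized levels, because they led the difference between β-lapachone and control medium. ILMN_1751120 had the smallest p for a higher value after the drug in both kinds of precipitate. ILMN_2155719 had the smallest p for a lower value after the drug in the IgG precipitates. Both were found by their identifier in the table of intensities, and both were among the 19914 probes tested. The table gives no gene symbol, 0 of its identifiers were found in the RefSeq gene table, and the probe sequences were not used here, so both are called by their identifiers.

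The question behind the arrays was which RNAs come down with NQO1 and whether β-lapachone alters this. HepG2 is an established human hepatocarcinoma line. Cells of 4 groups were kept for 30 min in regular medium (control) or in medium with 10 µM β-lapachone, and their cytoplasmic lysate was incubated with mouse anti-NQO1 or with nonspecific mouse IgG. Each group, IgG control, IgG β-lapachone, NQO1 control and NQO1 β-lapachone, held 4 arrays, 16 in all. The labels do not say whether the replicates were separate cultures, and the p-values therefore rest on a spread between arrays that may be technical.

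In RNA immunoprecipitation an antibody bound to beads pulls down a protein together with the RNA attached to it, and precipitates made with IgG alone measure the RNA that comes down without the target. NQO1 is a cytosolic flavoprotein that reduces quinones with NADH or NADPH. β-Lapachone is a quinone that NQO1 reduces to an unstable hydroquinone, which oxidises back and forms reactive oxygen species. A level in a precipitate depends both on how much of the RNA the cells hold and on how much of it is pulled down, and the arrays do not tell these apart.

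The arrays differed in how many probes were detected, meaning a deposited detection p-value under 0.05. The number ran from 9101 to 19097 per array. The 2 lowest were replicate 4 of NQO1 control with 9101 and replicate 4 of IgG β-lapachone with 9223, and all others had at least 13059. Results that involve these arrays, or replicate 3 of NQO1 β-lapachone with 13099, are given below with the values of the arrays concerned.

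ILMN_1751120 was near background without the drug and above it on every array with the drug. Its deposited intensities in IgG control were 128.2, 100.9, 114.4 and 124.3 for replicates 1 to 4, with detection p-values of 0.0662, 0.310, 0.155 and 0.0597. It was thus detected on 0 of these 4 arrays. In IgG β-lapachone its intensities were 272.7, 193.5, 224.4 and 110.7, with detection p-values from 0 to 0.0013. All 4 arrays detected the probe, although the 110.7 of replicate 4 was lower than 3 of the 4 control intensities.

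In the NQO1 precipitates ILMN_1751120 showed the same pattern. Its intensities in NQO1 control were 125.8, 145.1, 113.1 and 84.7, with detection p-values of 0.125, 0.0273, 0.306 and 0.871, so that only replicate 2 detected it. In NQO1 β-lapachone they were 249.4, 367.8, 279.5 and 318.9, with detection p-values from 0 to 0.0013. Here the deposited intensities themselves did not overlap between media. Over both precipitates the probe was detected on 8 of 8 arrays with the drug and on 1 of 8 without it, and it passed the filter for testing, detection on at least 4 arrays, through the drug-treated arrays.

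Intensities of different arrays were made comparable by background correction and quantile normalization and are given on the log2 scale. The normalized level of ILMN_1751120 in IgG control was 4.96, 4.70, 4.76 and 4.96 for replicates 1 to 4, or 4.85 ± 0.14 (SD, n = 4). In IgG β-lapachone it was 6.99, 8.14, 7.16 and 8.66, or 7.74 ± 0.80 (SD, n = 4). The groups did not overlap, and the higher values after the drug came from replicates 2 and 4. Since no control array detected the probe, the control level has only a bound. Set against the mean, over the control arrays, of the lowest level of any detected probe or the probe's own level where that was higher, the drug-treated level was at least 6.10-fold higher on the normalized scale with all arrays included. It is no bound across processing: the difference of the group means was 1.71-fold as a ratio to the array median, 2.35-fold without background correction, 3.72-fold with median centring, 4.08-fold with z scores and 4.80-fold with array weights. Without replicate 4 of IgG β-lapachone the log2 difference of the means was 2.59, in place of 2.89.

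In NQO1 control the normalized level was 4.79, 5.11, 4.69 and 4.45, or 4.76 ± 0.27 (SD, n = 4). In NQO1 β-lapachone it was 6.71, 6.77, 8.30 and 6.82, or 7.15 ± 0.77 (SD, n = 4). Again the groups did not overlap, and replicate 3 stood above the other arrays of its group. The difference was 2.39 on the log2 scale (SE 0.42), taken against control values of which 1 in 4 was above background. Without replicate 3 of NQO1 β-lapachone it was 2.01.

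**Figure D1:**
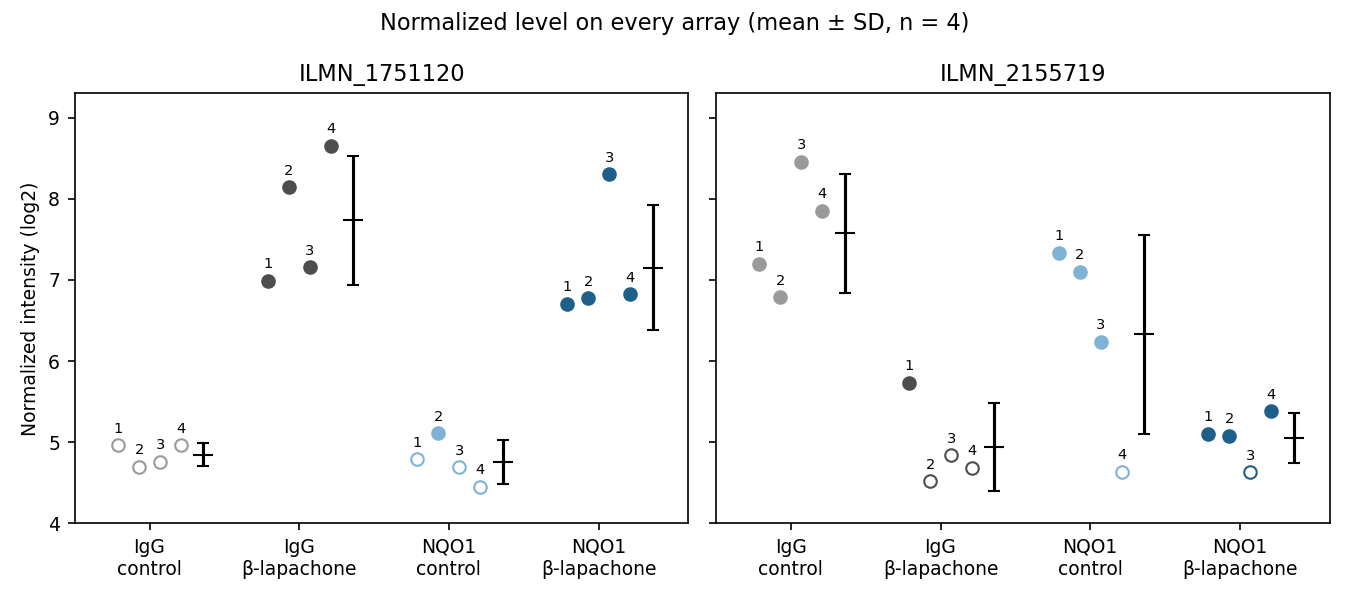
Normalized intensity (log2) of both probes on each of the 16 arrays, by group; numbers are replicates, filled circles detected and open circles not detected, and bars show mean ± SD (n = 4). ILMN_1751120 lay at 4.45 to 5.11 without the drug and at 6.71 to 8.66 with it, while ILMN_2155719 lay at 6.79 to 8.46 in IgG control and at 4.52 to 5.73 in IgG β-lapachone.

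Both drug differences of ILMN_1751120 are the values by which the probe was picked, so they are a description and carry no test. Groups that did not overlap, with higher values after the drug, were found for 0.392% of the tested probes with IgG and for 0.628% with anti-NQO1. Detection on all 4 IgG β-lapachone arrays and on none in IgG control was found for 11 probes, or 0.0552% of those tested. In the order by p, the next probe with higher values had a log2 difference of 2.94 (SE 0.49) in the IgG precipitates and of 1.37 (SE 0.28) in the NQO1 precipitates. By size alone, 1 tested probe lay above ILMN_1751120 in the IgG comparison and 6 did in the NQO1 comparison.

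The size of the difference of ILMN_1751120 depended on the scale. Divided by the median intensity of its array, with no background correction, it read 1.06, 0.996, 1.02 and 1.07 in IgG control and 2.33, 1.84, 1.93 and 1.20 in IgG β-lapachone. The groups still did not overlap, but replicate 4 of IgG β-lapachone, the highest on the normalized scale, was the lowest here. In NQO1 control the ratio was 1.03, 1.14, 0.993 and 0.926, and in NQO1 β-lapachone 2.14, 2.27, 2.16 and 2.34. Replicate 3, which stood apart on the normalized scale at 8.30, lay among the others on this one at 2.16.

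On the ratio scale the drug-treated mean was 1.71-fold the control mean in the IgG precipitates and 2.19-fold in the NQO1 precipitates, as geometric means over 4 arrays each. Ranked within its own array, which needs no scaling between arrays, ILMN_1751120 was brighter than 80.5% to 88.4% of all probes in IgG β-lapachone and than 48.2% to 62.8% in IgG control. The corresponding ranges were 79.1% to 86.8% in NQO1 β-lapachone and 9.25% to 66.3% in NQO1 control. Quantile normalization sets the normalized level from the rank in the array, so level and rank must separate the media alike. The separation by medium was therefore present in the normalized level, or rank, and in the ratio. The size of the difference was not the same in them.

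**Figure D2:**
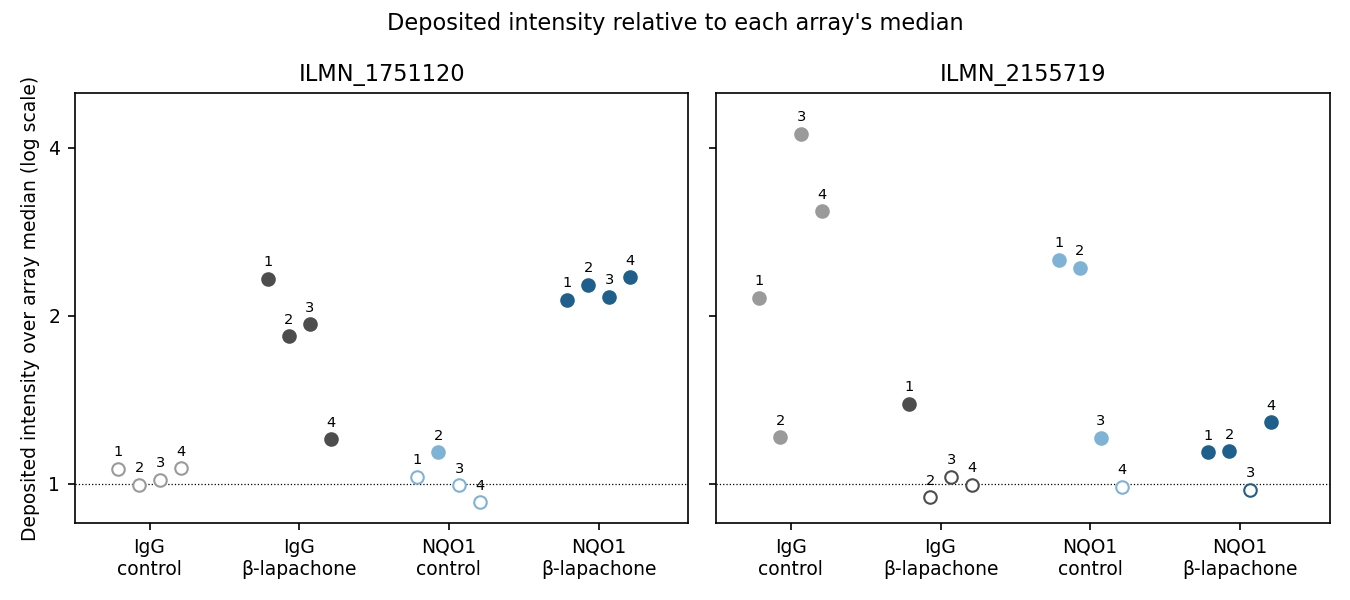
Deposited intensity over the median intensity of the same array (log scale; the dotted line marks the median), with replicate numbers and filled circles for detected values as before. NQO1 β-lapachone arrays lay close together for ILMN_1751120, from 2.14 to 2.34, and replicate 2 of IgG control, at 1.21, lay below replicate 1 of IgG β-lapachone, at 1.39, for ILMN_2155719.

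ILMN_2155719 ran the other way in the IgG precipitates. Its deposited intensities in IgG control were 259.3, 122.7, 476.6 and 358.6, all detected, with p-values from 0 to 0.00649. In IgG β-lapachone they were 163, 99.5, 119.7 and 91.8, and only replicate 1 detected the probe. The detection p-values of the other 3 arrays were 0.705, 0.117 and 0.416. The intensity of replicate 2 in control medium, 122.7, was lower than that of replicate 1 after the drug.

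The normalized level of ILMN_2155719 was 7.20, 6.79, 8.46 and 7.86 in IgG control, or 7.57 ± 0.73 (SD, n = 4). In IgG β-lapachone it was 5.73, 4.52, 4.84 and 4.68, or 4.94 ± 0.54 (SD, n = 4). The groups did not overlap, as was so for 0.698% of the tested probes with lower values in this comparison. The log2 difference was -2.63 (SE 0.54), and the next probe with lower values in the order by p had -1.85 (SE 0.47). Only 1 tested probe had a more negative difference. These values chose the probe and are given with no test.

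Relative to the array median, ILMN_2155719 read 2.15, 1.21, 4.23 and 3.08 in IgG control and 1.39, 0.945, 1.03 and 0.996 in IgG β-lapachone. On that scale replicate 2 of IgG control lay below replicate 1 of IgG β-lapachone, so the groups overlapped. By rank within the array they did not, with the probe brighter than 79.5% to 87.5% of all probes in control medium and than 21.3% to 73.1% after the drug. The non-overlap of ILMN_2155719 with IgG thus held for the rank and for the normalized level that the rank sets. It did not hold for the ratio or the deposited intensity. That of ILMN_1751120 held for level, rank and ratio, but with IgG not for the deposited intensity.

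The NQO1 precipitates were not used to choose ILMN_2155719 and share no array with the IgG precipitates, although their values were known when the probe was picked. Intensities in NQO1 control were 307.8, 310.8, 137.8 and 90.3, with detection p-values of 0, 0.0013, 0.00779 and 0.483. In NQO1 β-lapachone they were 132.9, 184.9, 126.1 and 175.4, with detection p-values of 0.0195, 0.0221, 0.432 and 0.00649. The probe was detected on 3 of 4 arrays in each medium. The arrays without detection were replicate 4 in control medium and replicate 3 after the drug, those with the fewest detected probes of their groups.

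The normalized level was 7.34, 7.10, 6.24 and 4.64 in NQO1 control, or 6.33 ± 1.22 (SD, n = 4), and 5.10, 5.08, 4.63 and 5.38 in NQO1 β-lapachone, or 5.05 ± 0.31 (SD, n = 4). Replicates 1 to 3 of the control group lay above all 4 drug-treated arrays, and replicate 4 lay among the lowest, so that the groups overlapped. As a ratio to the array median, replicate 3 of NQO1 control, at 1.21, also lay below replicate 4 of NQO1 β-lapachone, at 1.29. The log2 difference of the normalized levels was -1.28 (95% CI -2.44 to -0.12), in the direction seen with IgG. It did not pass limma's test across all 19914 probes (adjusted p = 1.00), nor the exact permutation test over the 8 arrays (two-sided p = 0.114, where 0.0286 is the smallest possible). In this comparison 0% of the tested probes passed by limma, and 0.708% did not overlap with lower values after the drug. Of the 19914 probes, 137 had an unadjusted p below 0.05 by limma, a smaller share than the 0.05 that chance alone would give. The cause of this low count was not tested.

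The size of this difference moved with single arrays. Without replicate 4 of NQO1 control the log2 difference was -1.84, and without replicate 1 of NQO1 control it was -0.94, and neither passed limma's test (adjusted p = 1.00 and 0.894). It was -0.48 without background correction and -0.54 as a log2 ratio to the array median. Array weights, which gave replicate 4 of NQO1 control a weight of 0.0737 and replicate 2 of the same group 13.5, moved the difference to -1.94 and past the threshold (adjusted p = 1.46e-06 by limma). With the same weights 2803 probes, or 14.1% of those tested, passed in this comparison.

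The antibody itself could be tested for both probes as the NQO1 minus IgG difference averaged over the media. The drug differences that chose the probes do not enter that average. The spread in limma's test came from all 16 arrays, including those that chose the probes. For ILMN_1751120, detection was found on 4 of 8 arrays with IgG and on 5 of 8 with anti-NQO1. Its average difference was -0.34 on the log2 scale (95% CI -0.98 to 0.30), which did not pass limma's test (adjusted p = 0.988) or the exact permutation test of antibody labels within each medium (two-sided p = 0.204). By medium the difference was -0.09 in control medium and -0.59 after β-lapachone. Its direction turned with the scaling, to 0.31 with median centring, 0.14 with z scores and 0.15 for the ratio to the array median, so no direction is given.

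For ILMN_2155719 the arrays with detection were 5 of 8 with IgG and 6 of 8 with anti-NQO1. The antibody difference averaged over media was -0.57 (95% CI -1.39 to 0.25), and it passed neither limma's test (adjusted p = 0.988) nor the exact permutation test (two-sided p = 0.208). It was -1.25 in control medium and 0.11 after β-lapachone. The first of these includes the IgG control level, by which the probe was picked, and replicate 4 of NQO1 control, and without that array the average was -0.29. In the averaged comparison 0% of all tested probes passed by limma. Of the 19914 probes, 149 had an unadjusted p below 0.05, again a smaller share than chance alone would give. The confidence intervals of both probes include 0 and are wide, reaching -0.98 for ILMN_1751120 and -1.39 for ILMN_2155719. A difference of moderate size between antibodies is therefore not excluded, and what size these arrays could detect was not tested.

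**Figure D3:**
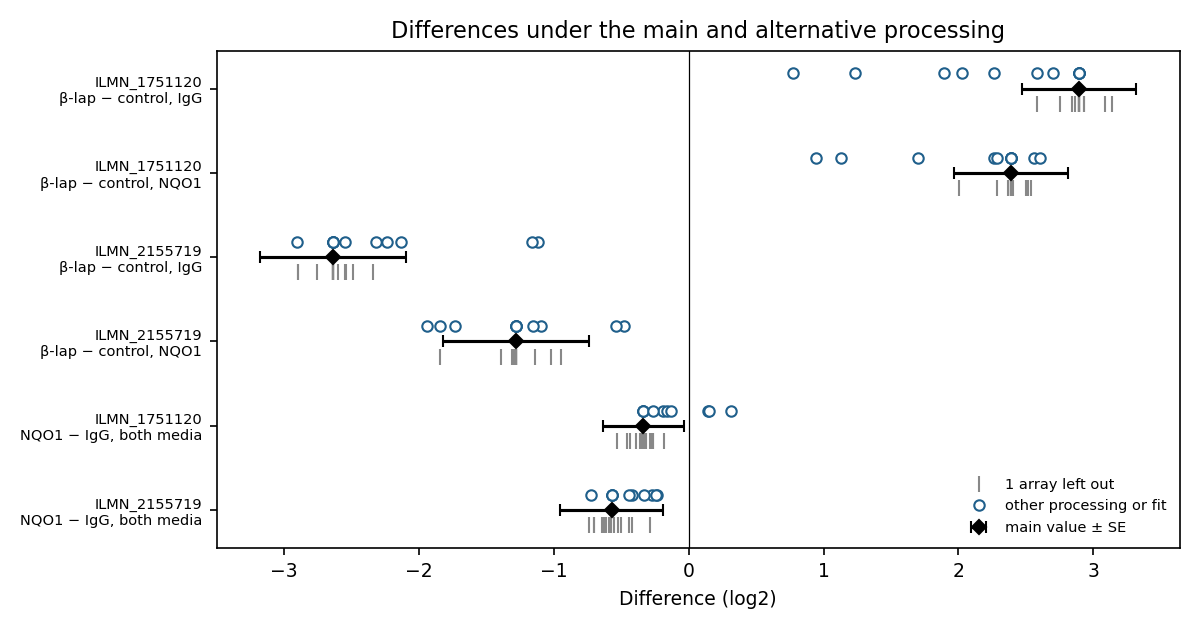
Log2 differences of both probes for β-lapachone minus control in each precipitate and for NQO1 minus IgG averaged over the media: diamonds are the main values ± SE, ticks leave out 1 of the 16 arrays, and open circles are other processing or fits. Every drug difference kept its sign, from 0.78 to 3.14 for ILMN_1751120 and from -2.90 to -0.48 for ILMN_2155719, while the antibody difference of ILMN_1751120 fell on both sides of 0.

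The 4 groups were also put in order of their means, as a description. From the lowest mean, the order of the normalized levels of ILMN_1751120 was NQO1 control, IgG control, NQO1 β-lapachone and IgG β-lapachone. The gap of 2.31 between IgG control and NQO1 β-lapachone exceeded the larger SD of the neighbours, 0.77, whereas the gaps of 0.09 and 0.59 on either side did not. With median centring, z scores or the ratio to the array median, NQO1 β-lapachone lay above IgG β-lapachone, and with z scores NQO1 control also lay above IgG control. Both groups in β-lapachone lay above both in control medium on every scale tried. For ILMN_2155719 the order on every scale tried was IgG β-lapachone, NQO1 β-lapachone, NQO1 control and IgG control. On the normalized scale the first gap, 0.11, was within the SD, and the other gaps of 1.28 and 1.25 were barely larger than the SD of 1.22 in NQO1 control.

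The drug differences were set against each other between precipitates as a description, since they include the values that chose the probes. For ILMN_1751120 the difference in the NQO1 precipitates minus that in the IgG precipitates was -0.50 on the log2 scale (SE 0.60), and it includes an IgG control level that no array detected. It was -0.29 without background correction, but 0.67 with median centring, 0.24 with z scores and 0.35 for the ratio to the array median, so no direction is given. For ILMN_2155719 it was 1.35 (SE 0.77), and it lay between 0.62 and 1.22 on those other scales, the NQO1 precipitates having the smaller difference between media. It includes replicate 4 of NQO1 control. Without the 2 arrays under 10000 detected probes the drug differences lay closer together, at -2.55 with IgG and -1.84 with anti-NQO1. With detected probes as a covariate they were -2.24 and -1.73.

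The patterns of the probes were then compared with all others. Over the 16 arrays the tested probe most like ILMN_1751120 was ILMN_1681542, with a Pearson correlation of 0.973 and a Spearman correlation of 0.862 between normalized levels. It also had the second smallest p for the drug in the IgG precipitates and the third smallest in the NQO1 precipitates. It was picked for its likeness to a probe chosen by its drug difference, so these places are a description and not a separate result. Its normalized level was 5.13, 5.41, 4.81 and 5.28 in IgG control and 7.19, 8.36, 7.56 and 9.27 in IgG β-lapachone, with 2 and 4 arrays detected. In NQO1 control it was 4.91, 4.83, 5.90 and 4.48, with 1 array detected, and in NQO1 β-lapachone 6.96, 6.87, 8.47 and 6.74, with 4 detected. Normalized levels of drug-treated and control arrays did not overlap in either precipitate. Higher values without overlap were found for 0.392% of the tested probes with IgG and for 0.628% with anti-NQO1. The deposited intensities of ILMN_1681542 overlapped with IgG and not with anti-NQO1.

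After the mean of each group was taken away, the normalized levels of ILMN_1751120 and ILMN_1681542 correlated at 0.844. For both probes, replicate 4 of IgG β-lapachone and replicate 3 of NQO1 β-lapachone were highest in their groups. As a ratio to the array median, that replicate 4 was lowest in its group for both, at 1.20 and 1.42. In the control groups the highest arrays were not shared. Replicate 2 of IgG control was lowest for ILMN_1751120 (4.70) and highest for ILMN_1681542 (5.41). In NQO1 control the highest array was replicate 2 for ILMN_1751120 and replicate 3 for ILMN_1681542. Replicate 4 of NQO1 control, with the fewest detected probes of all arrays, was lowest in that group for both, at 4.45 and 4.48. Quantile normalization acts on all probes of an array at once, so both probes share its effects. As ratios to the array median, the correlation over the 16 arrays, with group means left in, was 0.983. On that scale ILMN_1681542 was again the most like of all tested probes. In all, 5 of the other 19913 tested probes correlated above 0.9 with ILMN_1751120, and 14 above 0.8.

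For ILMN_2155719 the most like probe was ILMN_1660551, with a Pearson correlation of 0.876 and a Spearman correlation of 0.885, and 0 probes correlated above 0.9. Its group means lay closer together, at 6.65 ± 0.80 in IgG control, 5.26 ± 0.62 in IgG β-lapachone, 6.37 ± 0.87 in NQO1 control and 5.53 ± 0.65 in NQO1 β-lapachone (log2, SD, n = 4 each). Drug-treated and control arrays overlapped in both precipitates. Within groups the correlation was 0.840. As ratios to the array median, with group means left in, the correlation was 0.889, and 7 tested probes were then more like ILMN_2155719.

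**Figure D4:**
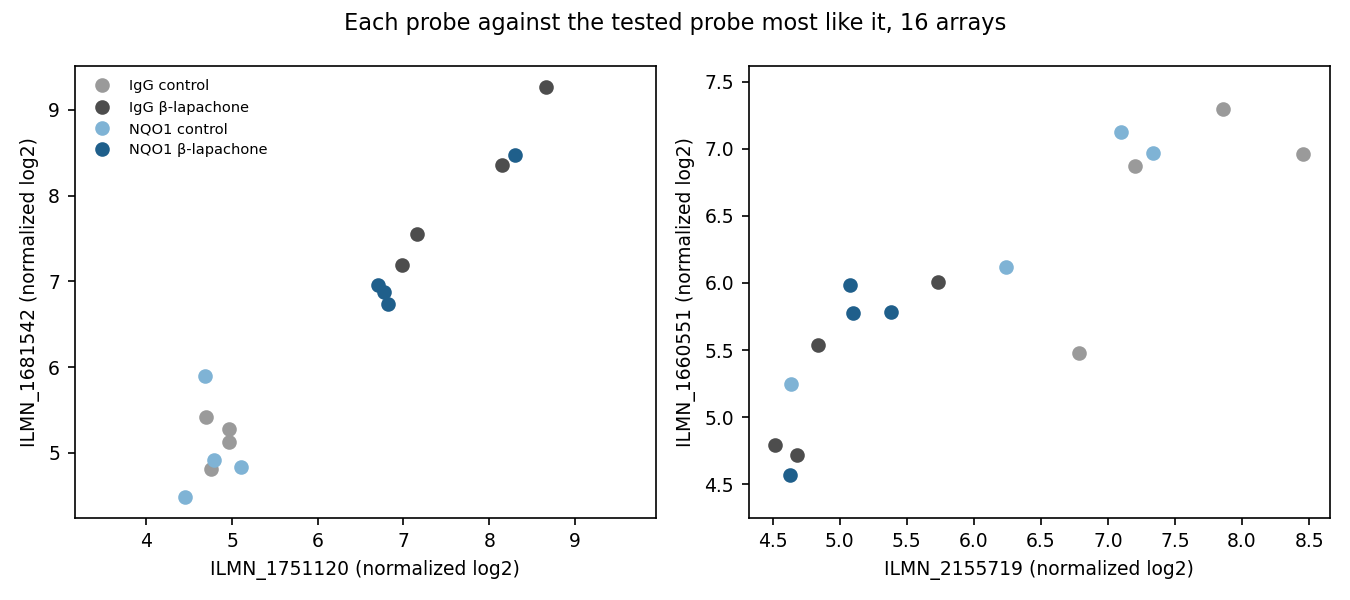
Normalized levels (log2) of ILMN_1751120 against ILMN_1681542 and of ILMN_2155719 against ILMN_1660551, 1 point per array, coloured by group. In the first pair the 8 drug-treated arrays lie apart from the 8 control arrays, and in the second the groups run into each other along one line (Pearson correlations 0.973 and 0.876).

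Between them, the 2 chosen probes correlated at -0.736 over the 16 arrays and at -0.134 once group means were taken away. Their opposite course thus lay between groups, and within groups little of it was seen. These correlations are descriptions of 16 arrays that also share normalization and depth of detection, and the probes were chosen for their opposite response.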

How the data were processed

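The members and all comparisons were chosen with earlier results of these data known. Summarised probe intensity was deposited on a linear scale in 1 table, which its name calls not normalized, and a detection p-value follows each array's intensity per the file headers. Per the submitters' processing notes the authors used GenomeStudio 2011.1, with settings not given in the sources used. Intensities were corrected by normexp from the detection p-values (offset 16), then quantile normalized and log2 transformed (neqc, limma 3.58.1, R 4.3.3). Probes detected (p under 0.05) on at least 4 of 16 arrays were tested. A mean for each group was fitted to all 16 arrays with lmFit and eBayes, with Benjamini-Hochberg adjustment over 19914 probes and a threshold of 0.05. The code of the fit was checked on simulated data with independent noise for each value and no deviation shared by a whole array. That setting was simpler than these arrays and does not show how the fit performs on them. For each chosen probe, the 1 tested probe with the highest Pearson correlation over the 16 arrays is named too. Exact permutation tests used normalized levels. Normalization, background, filter, arrays, weights, covariates and a replicate block were varied. The number of arrays limits the precision.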

Additional observations from a re-analysis of the deposited data

Results flagged for a closer look

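In the 8 groups of 4 arrays formed by the 2 probes, 1 array lay so far from the others of its group that the gap exceeded Dixon's 95% critical value of 0.829 of the group's range, where chance gives 0.4 on average. Replicate 3 of NQO1 β-lapachone read 8.30 on the log2 scale for ILMN_1751120, and the nearest array of its group read 6.82. On the same array the intensity over the array median was 2.16, between the 2.14 and 2.34 of its group, and 13099 probes were detected against 18023 to 19097 on the other arrays of the group. The part of the lower number of detected probes in the high normalized value was not tested.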

How the results depend on the processing

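The 3 fits and measures without 2 arrays, with detected probes as a covariate and as a ratio to the array median were chosen after seeing the data. With the covariate the drug difference of ILMN_1751120 was 2.70 in IgG and 2.61 in NQO1. That of ILMN_2155719 was then -2.24 in IgG and -1.73 in NQO1 (adjusted p = 0.153 by limma for the latter). The averaged antibody differences were -0.26 and -0.72 with the covariate, and neither passed limma's test (adjusted p = 0.919). Without background correction the drug difference of ILMN_1751120 was 1.23 with IgG and 0.95 with anti-NQO1, and that of ILMN_2155719 was -1.12 in IgG and -0.48 in NQO1, against -1.28 in the main processing. As log2 ratios to the array median these were 0.78, 1.13, -1.16 and -0.54. Array weights gave 2.26 and 1.70 for ILMN_1751120, and -1.94 for ILMN_2155719 in NQO1, its only call in 27 alternatives, made where 14.1% of all tested probes passed. Median centring gave 1.89 and z scores 2.03 for ILMN_1751120 in IgG. The antibody difference of ILMN_1751120 turned to 0.31, 0.14 and 0.15 with median centring, z scores and the ratio. The cause of these changes was not tested. With median centring the drug difference had a median over all probes of -0.25 in IgG and 0.58 in NQO1. Leaving out each array gave 2.59 to 3.14 (IgG) and 2.01 to 2.54 (NQO1) for ILMN_1751120, and -2.90 to -2.34 (IgG) and -1.84 to -0.94 (NQO1) for ILMN_2155719. The averaged antibody difference ran from -0.53 to -0.18 and from -0.74 to -0.29. With the replicate block, ILMN_2155719 in NQO1 stayed at -1.28 (adjusted p = 1.00 by limma) and no call changed. The deviations of arrays with equal replicate numbers correlated at -0.05 on average (-0.855 to 0.883 over 24 pairs). Such arrays were not used as pairs in the main fit, and the labels do not say whether they belong together. Values near background, as in most control arrays for ILMN_1751120, limit every fold.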
